A study of Homo sapiens with 39 samples.

Results

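Interferon-stimulated genes and their regulators were read from the deposited expression table by a fixed list of 40 gene symbols. All 40 were among the 46706 symbols of the table, and 32 passed a mean of at least 1 TPM (transcripts per 1000000) over the 39 libraries, as did 14404 symbols in all. The other 8 (IFI44L, HERC5, SAMD9, SAMD9L, XAF1, EPSTI1, CMPK2 and TRIM22) fell under that level, entered no test and are described by their values. The RNA came from HCC1428-LTED, a human breast cancer line that had been kept without estrogen for a long time. Every group, the control included, is this 1 line, kept in charcoal-stripped serum (IMEM medium) and collected 24 hours after treatment. Cells received DMSO, the vehicle, or an estrogen receptor ligand at 30 or 300 nM. The ligands were Fulvestrant, SAR439859, GDC-0810, AZD9496, GDC-SAR, which carries the side chain of SAR439859 on the scaffold of GDC-0810, and AZD-SAR, which carries that side chain on the scaffold of AZD9496. The 13 groups held 3 libraries each.

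Interferons are secreted proteins that bind receptors on the cell surface and, through Janus kinases, activate transcription factors such as STAT2. STAT2 and IRF9 are part of the complex ISGF3, which binds a short DNA element, the interferon-stimulated response element (ISRE), before genes that hinder viral replication. Many of these genes are also expressed at a lower level in tumour cells that have met no virus, and some encode parts of the pathway itself, such as STAT2, IRF9, IRF7 and the RNA sensors DDX58 and IFIH1.

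The sequences before 5 members are shown because they carry, or in IRF9 lack, the letters of this element, and because ISG15, IFI6, DTX3L and IRF9 are among the members that the comparisons below turn on. Each is the window from 250 bases before to 50 bases after the transcript start in the RefSeq table for GRCh38.p14, written 5′ to 3′ on the strand of the gene. They are chr1:1013247-1013546 (plus strand, ISG15), chr1:27672143-27672442 (minus strand, IFI6), chr10:89392373-89392672 (plus strand, IFIT1), chr3:122564088-122564387 (plus strand, DTX3L) and chr14:24161015-24161314 (plus strand, IRF9). Capitals mark matches to GAAANNGAAA on either strand in the first 4 windows, and the match to TTCNNNGAA, the gamma-activated site, in IRF9.
ISG15: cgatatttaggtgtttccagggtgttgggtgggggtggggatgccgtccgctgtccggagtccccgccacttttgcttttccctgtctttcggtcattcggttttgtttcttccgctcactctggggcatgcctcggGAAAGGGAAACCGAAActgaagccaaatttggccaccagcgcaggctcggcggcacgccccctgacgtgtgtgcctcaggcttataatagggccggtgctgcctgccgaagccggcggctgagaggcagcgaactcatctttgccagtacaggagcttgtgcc
IFI6: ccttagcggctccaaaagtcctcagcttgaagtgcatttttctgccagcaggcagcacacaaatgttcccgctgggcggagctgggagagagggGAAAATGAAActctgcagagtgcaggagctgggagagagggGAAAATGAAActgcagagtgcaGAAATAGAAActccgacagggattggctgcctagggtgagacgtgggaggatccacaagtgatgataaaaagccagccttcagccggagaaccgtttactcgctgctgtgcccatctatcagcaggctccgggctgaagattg
IFIT1: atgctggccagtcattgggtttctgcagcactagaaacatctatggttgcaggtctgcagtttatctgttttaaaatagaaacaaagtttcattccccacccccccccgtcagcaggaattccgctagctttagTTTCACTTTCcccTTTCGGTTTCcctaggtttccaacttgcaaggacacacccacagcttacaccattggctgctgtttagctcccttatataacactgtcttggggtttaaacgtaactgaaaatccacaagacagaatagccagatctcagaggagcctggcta
DTX3L: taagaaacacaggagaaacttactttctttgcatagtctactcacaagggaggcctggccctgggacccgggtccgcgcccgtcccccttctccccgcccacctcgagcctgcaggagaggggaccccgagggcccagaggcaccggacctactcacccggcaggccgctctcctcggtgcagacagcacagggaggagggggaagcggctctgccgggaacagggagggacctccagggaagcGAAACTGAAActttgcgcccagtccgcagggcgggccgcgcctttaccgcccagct
IRF9: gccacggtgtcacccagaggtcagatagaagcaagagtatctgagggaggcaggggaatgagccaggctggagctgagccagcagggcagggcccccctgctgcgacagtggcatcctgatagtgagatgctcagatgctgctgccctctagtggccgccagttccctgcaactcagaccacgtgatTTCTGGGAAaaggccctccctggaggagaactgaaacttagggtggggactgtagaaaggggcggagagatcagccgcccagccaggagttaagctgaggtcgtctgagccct

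ISG15 held 2 overlapping matches, IFI6 3, IFIT1 2 on the opposite strand and DTX3L 1, while no GAAANNGAAA stood in the IRF9 window. Of the 32 members with a window in that table, 21 held GAAANNGAAA, against 4.38% of the 27305 symbols with at least 1 window. The longer form GAAANNGAAAC, which contains the first motif, stood in 18 of 32, against 0.952% of those symbols. TTCNNNGAA stood in 10 of 32, against 9.38%, and the full estrogen response element GGTCANNNTGACC in 0 of 32, against 0.0732%. DTX3L and PARP9 lie head to head on opposite strands, so that 1 of the PARP9 windows overlaps the DTX3L window by 137 bases. These counts describe letters within short windows only.

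Library facts that touch the results are as follows. The labels do not say that the 3 libraries of a group came from separate cultures, and the series text speaks of duplicates, so p-values measure the spread between these libraries, which may be technical. Libraries listed between 15818 and 26756 symbols above 0, and their sequencing depth is unknown because TPM adds to the same total in each. Of the 3 DMSO libraries, 2 carry an index sequence that a treated library also carries, so an effect of sequencing pools cannot be told apart from treatment in comparisons with DMSO. Replicate 1 of SAR439859 30 nM stood above all others in its interferon-stimulated genes, and replicate 3 of that group listed the fewest symbols, so counts are also given without each of them. The line expressed the listed luminal markers, which summed to 6545 to 13520 TPM per library. Immune markers summed to 4.09 to 14.9 TPM, of which CD68 made 4.09 to 12.3, with CD3D and CLEC4C at 0 in all 39 libraries and PTPRC at 0 in 30. In bulk RNA, fewer cells that express a gene and less RNA of it per cell cannot be told apart.

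Against DMSO, interferon-stimulated genes were higher rather than lower wherever a member passed the test. Differences are the mean of log2(TPM + 1) over the treated libraries minus its mean over the DMSO libraries. This scale understates the change of genes with low TPM. A member is called at a Benjamini-Hochberg adjusted p below 0.05 from limma over all 14404 symbols. Across the 12 comparisons 16 of the 32 tested members were called higher at least once, against 25.5% of all tested symbols, and 0 were called lower in any, where 2.05 to 12.8% of all symbols were called lower. The 16 were IRF9, DTX3L, ISG15, OAS1, OAS2, IRF7, UBE2L6, PARP9, IFI6, STAT2, MX2, PARP14, DDX58, IFI27, MX1 and IRF1. The set as a whole therefore held more called members than the background in some groups and fewer in others.

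The largest counts were in 30 nM SAR439859 and 30 nM GDC-SAR, each with 12 of 32 members higher, beside 15.3% and 11.4% of all symbols. Fulvestrant raised 4 members at 30 nM and 9 at 300 nM, beside 11.3% and 11.1% of all symbols. SAR439859 at 300 nM raised 7, beside 11.2%. GDC-SAR at 300 nM raised 6, beside 9.76%, and AZD-SAR raised 8 at 30 nM and 6 at 300 nM, beside 11.9% and 12.7%. The 4 members at 30 nM Fulvestrant are a share of the list close to the background. GDC-0810 and AZD9496 gave the smallest counts. GDC-0810 raised 0 at 30 nM and 3 at 300 nM, beside 7.95% and 6.99% of all symbols, and AZD9496 raised 1 at 30 nM and 0 at 300 nM, beside 9.21% and 3.71%. At the comparisons with 0 calls, limma gave an unadjusted p below 0.05 for 3 members in 30 nM GDC-0810 and for 7 in 300 nM AZD9496, where 30.4% and 19.1% of all symbols had one. These counts are each against the same DMSO libraries, and whether they differ between ligands is tested directly further on.

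**Figure D1:**
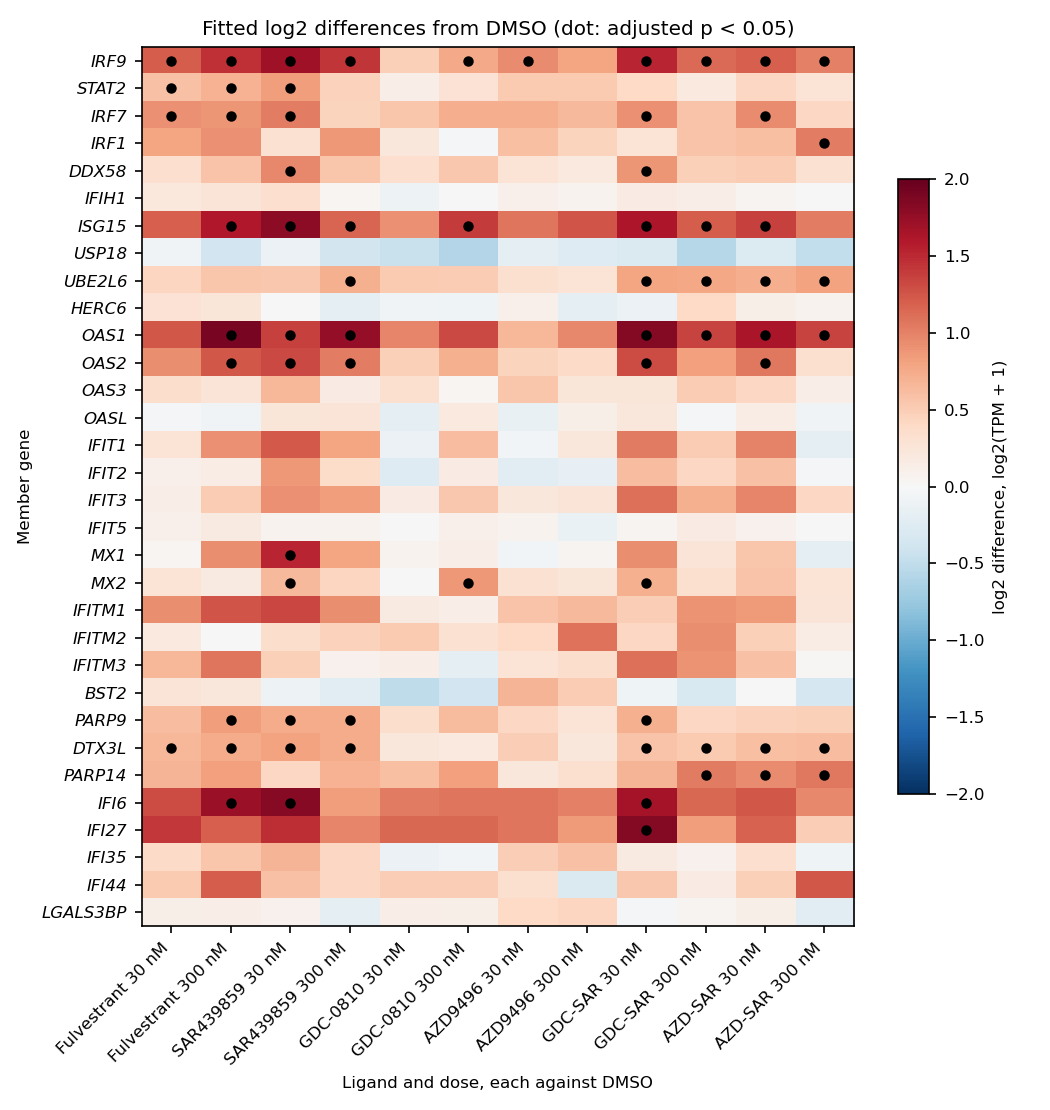
Fitted log2 difference from DMSO, on the log2(TPM + 1) scale, for each of the 32 tested members (rows) in each ligand and dose group (columns). A dot marks an adjusted p below 0.05. IRF9 has 10 dots, DTX3L 8, and ISG15 and OAS1 7 each, while the columns of 30 nM GDC-0810 and 300 nM AZD9496 have none.

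Member medians lay above those of all tested symbols in each comparison with DMSO. The median member difference was 0.72 in 300 nM Fulvestrant and 0.72 in 30 nM SAR439859, where the median of all symbols was 0.09 and 0.08. It was 0.40 in 30 nM Fulvestrant against 0.11, 0.51 in 300 nM SAR439859 against 0.03, 0.65 in 30 nM GDC-SAR against 0.06, and 0.50 in 300 nM GDC-SAR against 0.03. It was 0.58 in 30 nM AZD-SAR against 0.09 and 0.27 in 300 nM AZD-SAR against 0.03. In 30 nM and 300 nM GDC-0810 it was 0.20 and 0.30, against 0.02 and 0. In 30 nM and 300 nM AZD9496 it was 0.40 and 0.30, against 0.18 and 0.10. With TPM divided by median-of-ratios size factors, the median of all symbols fell to between -0.01 and 0.02 in the 12 comparisons, and that of the members stayed between 0.20 and 0.65.

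Members whose 3 treated libraries all lay above the 3 DMSO libraries were at least as frequent as called members in each comparison. Among all tested symbols, too, this pattern was more frequent than a call. They numbered 15 in 30 nM and 17 in 300 nM Fulvestrant, beside 28.1% and 24.5% of all symbols, and 12 in 30 nM and 13 in 300 nM SAR439859, beside 20.1% and 22%. In GDC-0810 they numbered 8 at 30 nM and 11 at 300 nM, beside 22% and 18.1%, so that the share at 30 nM was near the background. AZD9496 had 15 and 16, beside 29% and 20.7%. GDC-SAR had 18 at both doses, beside 24.9% and 21.8%, and AZD-SAR had 17 and 12, beside 26.3% and 20.8%.

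Single libraries moved these counts, each of which rests on 3 libraries a side. The 12 of 30 nM SAR439859 became 5 without its replicate 1 and 19 without its replicate 3. The 12 of 30 nM GDC-SAR became 4 without its replicate 1 and 7 without DMSO replicate 3, and the 8 of 30 nM AZD-SAR became 1 without its replicate 2, 4 without DMSO replicate 2 and 3 without DMSO replicate 3. The 9 of 300 nM Fulvestrant became 5 without its replicate 1, of which 1 was lower, and 5 without its replicate 2 or DMSO replicate 2. The 4 of 30 nM Fulvestrant became 2 without its replicate 2, DMSO replicate 2 or DMSO replicate 3. The 7 of 300 nM SAR439859 became 3 without its replicate 1 and 4 without its replicate 2, DMSO replicate 2 or DMSO replicate 3. The 6 of 300 nM GDC-SAR became 3 without its replicate 1, DMSO replicate 1 or DMSO replicate 2 and 2 without its replicate 2, its replicate 3 or DMSO replicate 3. The 6 of 300 nM AZD-SAR became 3 without its replicate 1 or 2 or without DMSO replicate 2 or 3. The 3 of 300 nM GDC-0810 became 1 without its replicate 2, DMSO replicate 1 or DMSO replicate 2, and the 0 of 30 nM GDC-0810 became 1 without its replicate 3. The 1 of 30 nM AZD9496 became 0 without its replicate 2 or without DMSO replicate 1 or 2. Because all groups share 1 estimate of the spread, leaving out replicate 1 of SAR439859 30 nM also raised the count of 30 nM Fulvestrant to 10, of 300 nM GDC-0810 to 6, of 30 nM AZD9496 to 4 and of 300 nM AZD9496 to 2. Leaving out its replicate 3 gave 8, 7, 2 and 1 there, and 1 in 30 nM GDC-0810. The share of all symbols called under each omission is not given here for comparisons with DMSO. In the F test among the 13 groups that share was 23.2% with all libraries. It was 28.1% without replicate 1 and 26.3% without replicate 3 of SAR439859 30 nM. The fit with only the 6 libraries of a comparison, which estimates the spread from them alone, gave 2 for 30 nM SAR439859, 13 for 30 nM AZD-SAR and 11 for 300 nM GDC-SAR. The share of all symbols called in that fit is not given here either. Of the 68 calls of a member in a comparison, 23 held whichever library was left out.

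IRF9, the DNA-binding subunit of ISGF3, was called in more of the comparisons than any other member. It lies on chromosome 14 at 24161053 to 24166565 (GRCh38, GENCODE version 29, plus strand). This gene model begins upstream of the RefSeq start used for the window shown above, so most of that window lies within the model. The DMSO libraries read 18.8, 25.5 and 32.8 TPM. Fulvestrant gave 46.3, 74.1 and 60.4 TPM at 30 nM and 88.3, 68.6 and 59.5 at 300 nM. SAR439859 gave 125, 62.7 and 73.5 TPM at 30 nM and 58.3, 79.0 and 71.9 at 300 nM. All 12 of these libraries exceeded every DMSO library. GDC-SAR gave 72.3, 88.5 and 63.2 TPM at 30 nM and 66.2, 51.0 and 53.5 at 300 nM, and AZD-SAR gave 42.4, 75.6 and 62.6 and then 50.7, 45.6 and 58.8. Lower values were read with GDC-0810, at 29.7, 31.2 and 48.1 TPM for 30 nM and 29.7, 52.0 and 51.3 for 300 nM. AZD9496 gave 46.3, 55.4 and 46.1 TPM at 30 nM and 34.8, 53.0 and 46.7 at 300 nM. Only GDC-0810 groups overlapped DMSO.

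IRF9 differences from DMSO ran from 0.48 in 30 nM GDC-0810 to 1.69 in 30 nM SAR439859, each with an SE of 0.26. The call was made in 10 of 12 comparisons, a frequency reached by 4.43% of all tested symbols. Adjusted p from limma was 1.26e-05 in 30 nM SAR439859, 7.41e-05 in 30 nM GDC-SAR, 0.000115 in 300 nM Fulvestrant and 0.00013 in 300 nM SAR439859. It was 0.00108 in 30 nM Fulvestrant, 0.00125 in 30 nM AZD-SAR, 0.00194 in 300 nM GDC-SAR and 0.00453 in 300 nM AZD-SAR, and these 8 calls held without any single library of either group. The call in 300 nM GDC-0810 (adjusted p = 0.0445 with limma) was lost without its replicate 2 (0.163) or 3 (0.133), or without DMSO replicate 1 (0.205) or 2 (0.0978). That in 30 nM AZD9496 (0.0171) was lost without its replicate 2 (0.0583) or without DMSO replicate 1 (0.102) or 2 (0.0534), and reached 0.0638 with size factors. In 30 nM GDC-0810 and 300 nM AZD9496 the adjusted p was 0.208 and 0.0663.

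**Figure D2:**
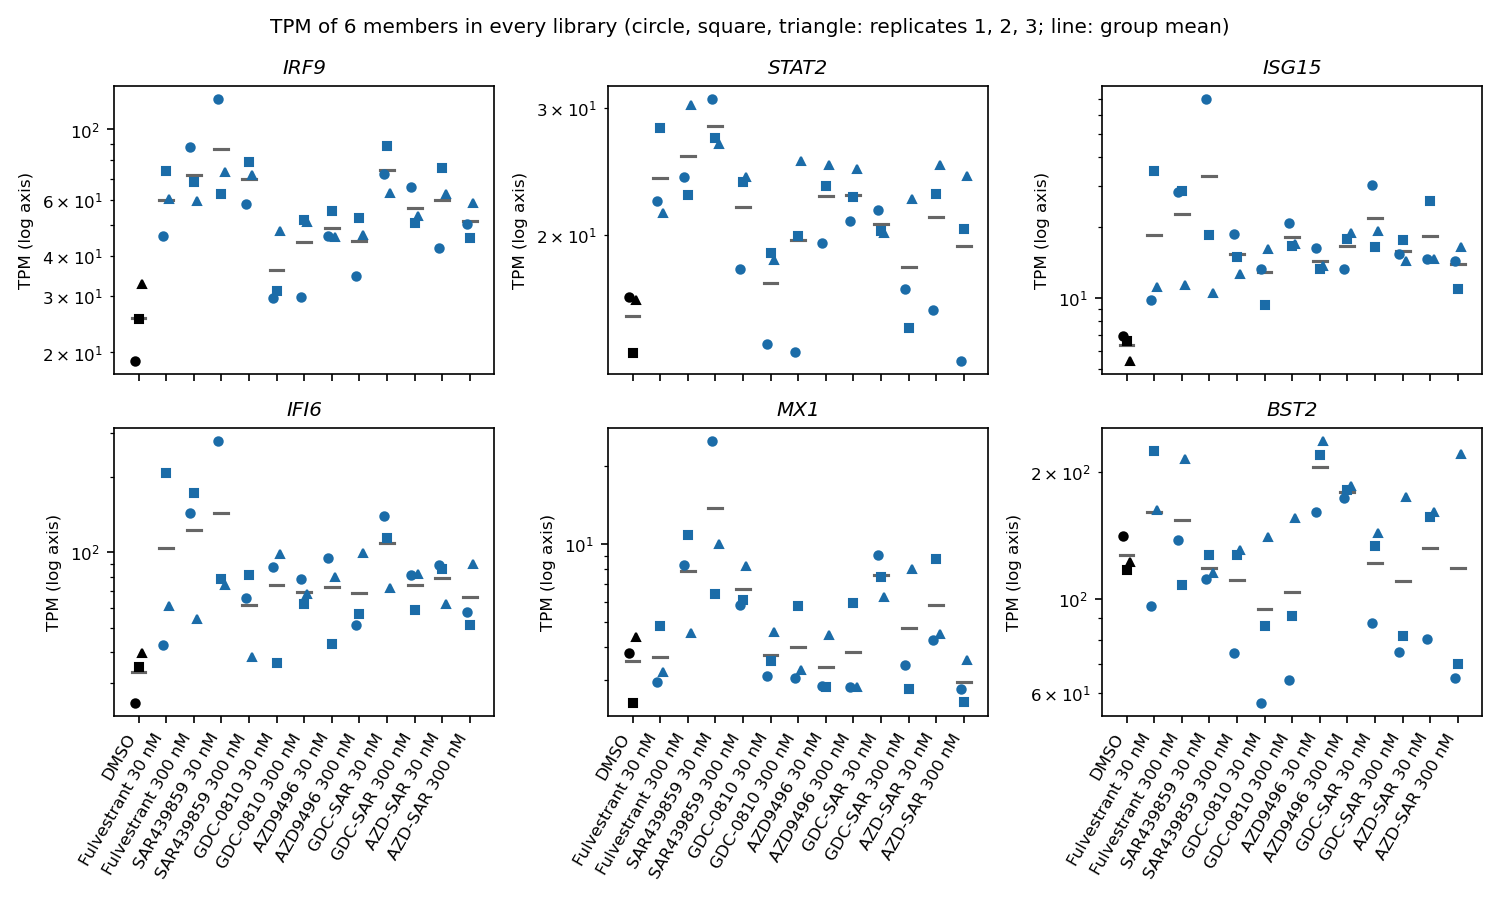
TPM on a log axis of IRF9, STAT2, ISG15, IFI6, MX1 and BST2 in each of the 39 libraries, DMSO in black, with replicates 1 to 3 as circle, square and triangle and a line at the group mean. All 36 treated libraries lie above the DMSO libraries for ISG15, whereas BST2 has 15 treated libraries above and 15 below all DMSO libraries.

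STAT2, the partner of IRF9 in ISGF3, moved less. It read 16.4, 13.7 and 16.3 TPM in DMSO and 22.3, 28.1 and 21.5 in 30 nM Fulvestrant. It read 24.1, 22.8 and 30.3 TPM in 300 nM Fulvestrant and 30.9, 27.2 and 26.8 in 30 nM SAR439859. These 3 groups were called higher, with differences of 0.59, 0.69 and 0.83 (SE 0.20), limma adjusted p of 0.0363, 0.0148 and 0.0026, and no overlap with DMSO. The call in 30 nM SAR439859 held without each single library. That in 30 nM Fulvestrant was lost without its replicate 1 or 2 or without any 1 DMSO library, up to an adjusted p of 0.151, and with size factors (0.056), and that in 300 nM Fulvestrant without its replicate 3 (0.0751) or DMSO replicate 2 (0.0741). In the other 9 groups the differences lay between 0.13 and 0.53 and were not called.

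IRF7, the factor that drives type I interferon genes, and IRF1, a factor induced by interferon gamma, differed in where they passed. IRF7 read 17.4, 13.3 and 13.8 TPM in DMSO and at most 66.4 TPM, in replicate 1 of SAR439859 30 nM. It was higher in both Fulvestrant doses (29.6 and 28.4 TPM on average) and in 30 nM SAR439859 (36.3), GDC-SAR (29.2) and AZD-SAR (29.5), by 0.89 to 1.03 (SE 0.30) with limma adjusted p of 0.0123 to 0.038. In 34 of 36 treated libraries IRF7 lay above every DMSO library. Each of its 5 calls was lost in 2 to 4 of the 6 omissions of 1 library, among them replicate 1 of 30 nM SAR439859 (adjusted p = 0.176), of 30 nM GDC-SAR (0.153) and of 300 nM Fulvestrant (0.141), replicate 2 of 30 nM Fulvestrant (0.162) and of 30 nM AZD-SAR (0.083), and DMSO replicate 2 in each (0.0503 to 0.12). IRF1 read 7.45, 6.79 and 4.36 TPM in DMSO, and was called only in 300 nM AZD-SAR, at 11.3, 17.3 and 12.1 TPM (1.02, SE 0.38, limma adjusted p = 0.047). Without any 1 of the 6 libraries the IRF1 adjusted p was 0.0557 to 0.179. Its lowest value, 2.82 TPM, was in replicate 3 of SAR439859 30 nM, whose group-mates read 12.2 and 12.3.

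DDX58 (RIG-I) and IFIH1 (MDA5) sense viral RNA in the cytoplasm. DDX58 read 1.33, 1.19 and 1.45 TPM in DMSO, 5.77, 2.22 and 3.31 in 30 nM SAR439859 and 5.47, 2.68 and 2.27 in 30 nM GDC-SAR. These 2 groups lay wholly above DMSO and were called higher, by 0.97 and 0.88 (SE 0.25, limma adjusted p = 0.00491 and 0.0122). Each call rested on replicate 1 of its group, without which the adjusted p was 0.0544 and 0.125. IFIH1 stayed between 1.96 and 5.05 TPM in all libraries, with differences from -0.10 to 0.34 (SE 0.19) and 0 calls. Only 5 treated libraries lay above all 3 DMSO libraries for IFIH1.

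ISG15, a ubiquitin-like protein that is attached to other proteins, lay above every DMSO library in all 36 treated libraries, a pattern found in 4.08% of all tested symbols and in no other tested member. Its gene model spans 1001138 to 1014540 on chromosome 1 in GENCODE version 29 and begins upstream of the RefSeq start shown above. The DMSO libraries read 6.90, 6.62 and 5.43 TPM. Fulvestrant gave 9.84, 34.8 and 11.2 TPM at 30 nM and 28.2, 28.6 and 11.4 at 300 nM. SAR439859 gave 70.1, 18.6 and 10.5 TPM at 30 nM and 18.8, 15.0 and 12.7 at 300 nM. Within 30 nM SAR439859 the libraries thus differed more from each other than the lowest of them did from DMSO. GDC-0810 gave 13.3, 9.38 and 16.3 TPM and then 21.0, 16.7 and 17.1, and AZD9496 gave 16.3, 13.3 and 13.7 and then 13.3, 17.8 and 18.9. GDC-SAR gave 30.2, 16.5 and 19.4 TPM and then 15.4, 17.7 and 14.5, and AZD-SAR gave 14.6, 25.9 and 14.7 and then 14.5, 11.0 and 16.5.

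ISG15 differences ran from 0.91 in 30 nM GDC-0810 to 1.79 in 30 nM SAR439859 (SE 0.43), and 7 of 12 were called. The limma adjusted p was 0.00267 in 30 nM SAR439859 and 0.00777 in 30 nM GDC-SAR, and these calls held without each single library. It was 0.00912 in 300 nM Fulvestrant, lost without its replicate 1 (0.0533) or 2 (0.0575), and 0.0248 in 30 nM AZD-SAR, lost without its replicate 2 (0.128), DMSO replicate 2 (0.0573) or DMSO replicate 3 (0.0822). In 300 nM GDC-0810 it was 0.0274 and was kept without 1 of the 6 libraries only, with a range of 0.0428 to 0.103. The calls in 300 nM SAR439859 (1.16) and 300 nM GDC-SAR (1.20, adjusted p = 0.048) stood at the threshold and were lost whichever library was left out, with adjusted p of 0.0578 to 0.164. In 30 nM Fulvestrant (adjusted p = 0.0502) the difference of 1.20 fell just short. The 30 nM SAR439859 call was lost in the limma fit of only the libraries compared (adjusted p = 0.151).

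The enzymes around ISG15 did not move as 1 group. UBE2L6, the enzyme that carries ISG15 to its targets, read 76.7, 64.8 and 66.5 TPM in DMSO and lay above them in 35 of 36 treated libraries. It was called higher in both doses of GDC-SAR (119.8 and 119.7 TPM on average) and AZD-SAR (117 and 124) and in 300 nM SAR439859 (116), by 0.72 to 0.80 (SE 0.21), with limma adjusted p of 0.00472 to 0.0115. The calls in 300 nM SAR439859 and 30 nM AZD-SAR were lost without replicate 1 (0.0814) and replicate 2 (0.065) of their groups. USP18, which removes ISG15 and dampens the interferon receptor, read 3.55, 2.42 and 2.12 TPM in DMSO, and 24 of 36 treated libraries lay below all of these. Its differences were -0.58 to -0.07 (SE 0.25), the only tested member below DMSO on average in all 12 groups, with 0 calls and a smallest adjusted p of 0.114. HERC6, a ligase of the same family as HERC5, differed by -0.18 to 0.40 (SE 0.35) with 0 calls.

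**Figure D3:**
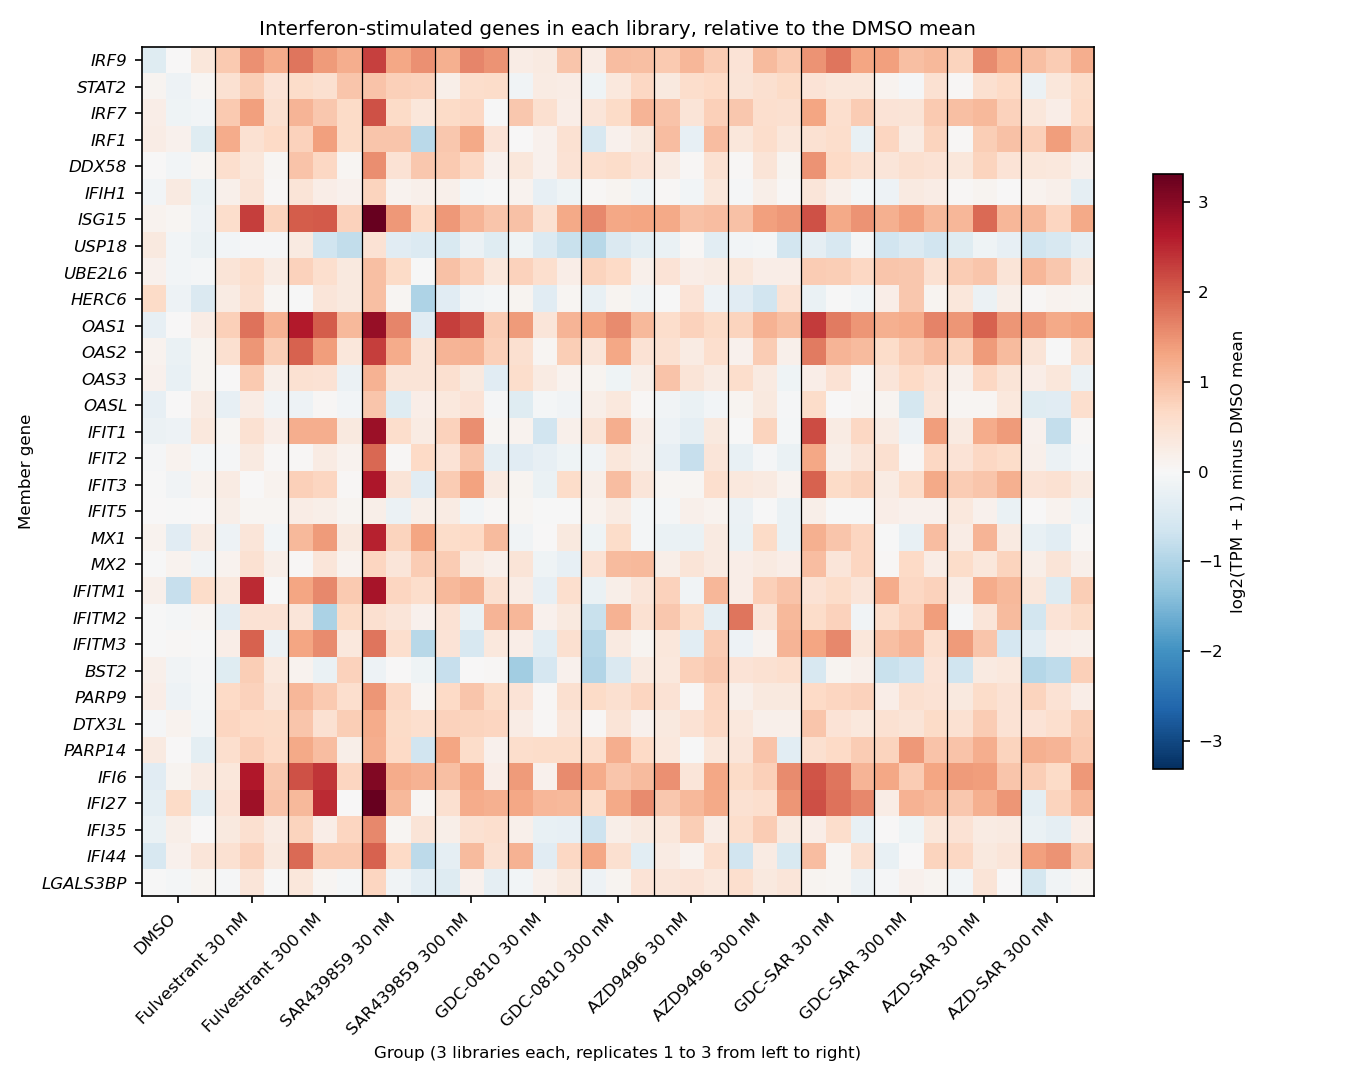
Each of the 32 tested members (rows) in each of the 39 libraries (columns, 3 per group, DMSO first), as log2(TPM + 1) minus the mean of the 3 DMSO libraries. The first column of SAR439859 30 nM is red for nearly all members, while USP18, with 24 of 36 treated libraries below every DMSO library, is blue in most columns.

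The OAS enzymes make short oligoadenylates that activate RNase L. OAS1 read 1.50, 2.03 and 2.55 TPM in DMSO, 17.6, 11.1 and 5.32 in 300 nM Fulvestrant and 13.6, 12.04 and 4.39 in 300 nM SAR439859. In 30 nM SAR439859 it read 21.1, 8.17 and 1.32 TPM, so that the group held both the highest and the lowest of the 39 values. OAS1 was called in 7 comparisons, with differences of 1.91 in 300 nM Fulvestrant, 1.83 in 30 nM GDC-SAR, 1.75 in 300 nM SAR439859, 1.63 in 30 nM AZD-SAR, 1.37 in 30 nM SAR439859 and 1.35 in the 300 nM groups of GDC-SAR and AZD-SAR (SE 0.48, limma adjusted p = 0.005 to 0.0448). The first 2 of these calls held without each single library. The 300 nM calls for GDC-SAR and AZD-SAR were lost whichever library was left out (0.0571 to 0.129), that in 30 nM SAR439859 without any except its replicate 3 (up to 0.336), that in 300 nM SAR439859 without its replicate 1 (0.0574), and that in 30 nM AZD-SAR without its replicate 2 (0.0705) or DMSO replicate 1 (0.0577).

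OAS2 was low, at 0.821, 0.436 and 0.786 TPM in DMSO, and was called in 5 groups. They read 5.45, 3.35 and 1.17 TPM in 300 nM Fulvestrant, 7.22, 2.94 and 1.23 in 30 nM SAR439859, and 2.66, 2.69 and 1.90 in 300 nM SAR439859. The other called groups read 4.55, 2.63 and 2.46 TPM in 30 nM GDC-SAR and 1.80, 3.41 and 2.43 in 30 nM AZD-SAR. All 15 libraries of these groups were above DMSO, with differences of 1.02 to 1.32 (SE 0.37) and limma adjusted p of 0.00887 to 0.0429. The 5 OAS2 calls held in 3, 5, 1, 4 and 1 of the 6 omissions of 1 library, in the order given. Without replicate 1 of its group the adjusted p was 0.145 in 300 nM Fulvestrant, 0.102 in 30 nM SAR439859, 0.119 in 300 nM SAR439859 and 0.0682 in 30 nM GDC-SAR, and without replicate 2 it was 0.158 in 30 nM AZD-SAR. Without DMSO replicate 2 the OAS2 calls in 300 nM Fulvestrant (0.0756), 300 nM SAR439859 (0.136), 30 nM GDC-SAR (0.0532) and 30 nM AZD-SAR (0.138) were lost too. OAS3 (0.05 to 0.67, SE 0.26) and OASL (-0.20 to 0.26, SE 0.28), a relative without the synthetase activity, had 0 calls.

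The 4 IFIT genes, whose proteins bind viral RNA, stand side by side on chromosome 10 and had 0 calls. IFIT1 read 0.739, 0.766 and 1.55 TPM in DMSO, and its treated libraries ran from 0.153 TPM in 300 nM AZD-SAR to 13.2 TPM in replicate 1 of SAR439859 30 nM. In that group the other libraries read 1.96 and 1.38 TPM. In 30 nM GDC-SAR IFIT1 read 7.91, 1.41 and 2.19 TPM, again 1 library far above its group-mates. Its largest difference was 1.22 (SE 0.53, limma adjusted p = 0.0883), in 30 nM SAR439859. IFIT2 (-0.27 to 0.87, SE 0.34) and IFIT3 (0.13 to 1.11, SE 0.45) behaved alike in having their highest value in replicate 1 of SAR439859 30 nM, at 9.04 and 9.02 TPM. IFIT5 was the steadiest tested member, at 1.79 to 3.16 TPM in all 39 libraries.

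MX1 and MX2 are dynamin-like GTPases that trap viral particles. MX1 read 3.79, 2.44 and 4.37 TPM in DMSO and 24.9, 6.43 and 10.02 in 30 nM SAR439859, where it was called (1.53, SE 0.36, limma adjusted p = 0.00228, and at most 0.0361 without any single library). The 300 nM Fulvestrant libraries (8.35, 10.8 and 4.53 TPM), the 300 nM SAR439859 libraries (5.84, 6.10 and 8.26) and the 30 nM GDC-SAR libraries (9.05, 7.45 and 6.25) also lay above all DMSO libraries, with adjusted p of 0.0716, 0.12 and 0.0635. The MX1 call in 30 nM SAR439859 was lost in the limma fit of only the libraries compared (adjusted p = 0.113). In both AZD9496 doses and in 300 nM AZD-SAR, MX1 differed from DMSO by -0.19 to 0.06. MX2 was called in 300 nM GDC-0810, at 1.48, 2.66 and 2.77 TPM against 0.773, 0.934 and 0.658 in DMSO. The difference was 0.86 (SE 0.22, limma adjusted p = 0.00801), and the call held without each single library. MX2 lost this call with only the libraries compared in the fit (0.0515). It was also called in 30 nM SAR439859 (0.65, adjusted p = 0.0297) and 30 nM GDC-SAR (0.72, adjusted p = 0.0196), both lost without replicate 1 of the group (0.067 and 0.115) or DMSO replicate 3 (0.0942 and 0.0703), and the first also without its replicate 3 (0.0979) or DMSO replicate 1 (0.0683).

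The IFITM proteins sit in membranes and block viral entry, and BST2 (tetherin) holds virus particles at the cell surface. IFITM1, IFITM2 and IFITM3 share 11.6 to 32.1% of their 31-base stretches in GENCODE version 29 transcripts, and the models of IFITM1 (313506 to 315272) and IFITM2 (307631 to 315272) overlap on chromosome 11, so reads may have been split between them and their values are uncertain. Each had 0 calls. IFITM1 read 0.905, 0 and 1.57 TPM in DMSO and was highest in replicate 1 of SAR439859 30 nM (10.3 TPM) and replicate 2 of Fulvestrant 30 nM (8.46), whose group-mates read 1.77 and 1.53 and 1.15 and 0.677. IFITM3 read 0.868, 0.923 and 0.851 TPM in DMSO and 1.19, 6.34 and 0.650 in 30 nM Fulvestrant. IFITM2 did not share these libraries, with its highest value, 9.85 TPM, in replicate 1 of AZD9496 300 nM. BST2 was the most abundant member, at 141, 117 and 122 TPM in DMSO and 56.7 to 236 TPM over all libraries. It lay above all DMSO libraries in both AZD9496 doses (161, 220 and 236 TPM, then 173, 181 and 185) and in 15 treated libraries in all, and below them in another 15, with 0 calls (-0.51 to 0.68, SE 0.41).

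DTX3L, PARP9 and PARP14 form another set, DTX3L and PARP9 being a ubiquitin ligase and an ADP-ribosyltransferase relative that work as a complex. DTX3L read 2.11, 2.47 and 1.96 TPM in DMSO, 4.18, 4.02 and 3.94 in 30 nM Fulvestrant and 4.95, 3.50 and 4.58 in 300 nM Fulvestrant. SAR439859 gave 6.49, 3.91 and 3.69 TPM at 30 nM and 4.35, 4.31 and 4.22 at 300 nM. DTX3L was low in level but even between libraries, with a pooled SD within groups of 0.20, and was called in 8 of 12 comparisons, by 0.52 to 0.81 (SE 0.17). Its calls in both Fulvestrant doses (limma adjusted p = 0.00657 and 0.0027), both SAR439859 doses (0.000866 and 0.0023) and 300 nM AZD-SAR (0.01) held without each single library. Those in 30 nM GDC-SAR (0.0174) and 30 nM AZD-SAR (0.0134) were lost without replicate 1 (0.14) and replicate 2 (0.0906) of their groups or without DMSO replicate 3 (0.0681 and 0.0579), and that in 300 nM GDC-SAR (0.0331) in 5 of 6 omissions (up to 0.111). With only the libraries compared in the limma fit, DTX3L lost its calls in 30 nM SAR439859 (adjusted p = 0.107), 30 nM GDC-SAR (0.0706) and 300 nM AZD-SAR (0.061). In the 4 groups of GDC-0810 and AZD9496, DTX3L differed by 0.20 to 0.49 and was not called.

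PARP9 read 1.94, 1.27 and 1.43 TPM in DMSO and was called in 300 nM Fulvestrant (4.41, 3.61 and 2.70), 30 nM SAR439859 (6.04, 3.11 and 1.65), 300 nM SAR439859 (2.99, 3.83 and 2.92) and 30 nM GDC-SAR (2.96, 3.12 and 3.30). The differences were 0.70 to 0.84 (SE 0.23, limma adjusted p = 0.0108 to 0.0281). All 4 were lost without DMSO replicate 2 (0.0557 to 0.109), and that in 30 nM SAR439859 reached 0.204 without its replicate 1. Those in 300 nM Fulvestrant without its replicate 1 (0.0674) and 300 nM SAR439859 without its replicate 2 (0.0827) were lost too, and that in 30 nM GDC-SAR was kept in 1 of 6 omissions. Both SAR439859 calls also went without DMSO replicate 3 (0.0551 and 0.0602). The gene models of DTX3L (122564238 to 122575203) and PARP9 (122527924 to 122564577) overlap at their starts on opposite strands of chromosome 3, and whether the counting used strand is not given in the sources used here. PARP14, an ADP-ribosyltransferase, read 2.35, 1.74 and 1.15 TPM in DMSO and was called in 300 nM GDC-SAR (3.50, 6.31 and 4.20), 30 nM AZD-SAR (4.17, 5.19 and 3.48) and 300 nM AZD-SAR (5.09, 4.87 and 3.91), by 0.95 to 1.05 (SE 0.35, limma adjusted p = 0.0247 to 0.0488). All 3 were lost without replicate 2 of the group (0.072 to 0.161), DMSO replicate 2 (0.0591 to 0.107) or DMSO replicate 3 (0.109 to 0.182), and they were kept in 2, 1 and 2 of 6 omissions. In each of these groups PARP14 lay wholly above DMSO.

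IFI6 and IFI27 encode small membrane proteins that interferon induces strongly. IFI6 read 24.9, 34.8 and 39.6 TPM in DMSO, 144, 172 and 53.9 in 300 nM Fulvestrant, 278, 78.1 and 73.9 in 30 nM SAR439859 and 140, 114 and 71.9 in 30 nM GDC-SAR. These were its called groups (1.73, 1.82 and 1.66, SE 0.51, limma adjusted p = 0.0152, 0.00821 and 0.018). Without replicate 1 of the group the adjusted p was 0.0695, 0.0901 and 0.0783. The 300 nM Fulvestrant call was also lost without its replicate 2 (0.0978) or DMSO replicate 1 (0.0657), and the GDC-SAR call without its replicate 2 (0.0525) or DMSO replicate 1 (0.0721). In 30 nM Fulvestrant IFI6 read 42.6, 208 and 61.0 TPM, all above DMSO, with 1 library far from its group-mates, and the difference of 1.30 had a limma adjusted p of 0.069. IFI27 read 1.56, 3.94 and 1.56 TPM in DMSO and was called in 30 nM GDC-SAR only, at 13.1, 10.04 and 8.58 TPM (1.84, SE 0.60, limma adjusted p = 0.026), lost without its replicate 1 (0.0866) or 2 (0.0569) or DMSO replicate 1 (0.0854) or 3 (0.0913). In 30 nM Fulvestrant it read 3.39, 21.3 and 5.17 TPM and in 30 nM SAR439859 30.7, 5.70 and 2.31, each with 1 library apart.

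IFI35, IFI44 and LGALS3BP, a secreted glycoprotein that binds galectins, had 0 calls. IFI44 read 0.253, 0.990 and 1.37 TPM in DMSO and 3.66, 4.06 and 2.35 in 300 nM AZD-SAR, all above DMSO (1.25, SE 0.50, limma adjusted p = 0.0652). In 30 nM SAR439859 it ran from listed at 0 in replicate 3 to 5.98 TPM in replicate 1. IFI35 differed by -0.11 to 0.69 (SE 0.28), and LGALS3BP, at 29.2 to 73.5 TPM, by -0.21 to 0.43 (SE 0.21).

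The 8 members under the level for testing were mostly near 0. TRIM22, a ubiquitin ligase, was listed at 0 in 26 libraries and never above 0.246 TPM, and EPSTI1 at 0 in 19 and never above 0.449. CMPK2, a mitochondrial nucleotide kinase, was at 0 in 13 and reached 1.52 TPM, and IFI44L was at 0 in 11 and reached 1.24. HERC5, the main ligase for ISG15, was at 0 in 4 and reached 0.750 TPM. SAMD9 ran from 0.320 to 2.26 TPM and XAF1 from 0 to 2.88. The highest value of CMPK2, HERC5, SAMD9 and XAF1 was in replicate 1 of SAR439859 30 nM. That of SAMD9L, 7.14 TPM, was in replicate 3 of the same group, where replicates 1 and 2 read 0.491 and 0.177.

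The next question was whether the higher dose gave a different level. Within each of the 6 ligands 0 of 32 members were called between 300 and 30 nM, where 0% of all tested symbols were called. Limma gave an unadjusted p below 0.05 for 1 member in Fulvestrant, SAR439859 and GDC-0810 each, for 2 in AZD-SAR and for 0 in AZD9496 and GDC-SAR, where 1.77% (Fulvestrant) to 11.9% (SAR439859) of all symbols had one. In AZD-SAR 8 of 32 members (OAS1, OAS2, IFI35, IFIT1, IFIT2, IFIT3, MX1 and IRF7) lay wholly lower at 300 nM, as did 5.28% of all symbols. In GDC-0810 5 (ISG15, OASL, IFIT1, IFIT2 and MX2) lay wholly higher at 300 nM, as did 3.32% of all symbols. The other 4 ligands had 0 to 2 members wholly higher, beside 1.92 to 2.95% of all symbols, and 0 to 3 wholly lower, beside 4.33 to 8.82%. MX2 in GDC-0810 had the smallest unadjusted p of these (0.000581), at 1.40, 0.622 and 0.486 TPM at 30 nM and 1.48, 2.66 and 2.77 at 300 nM, with no overlap (0.85, 95% interval 0.40 to 1.31, adjusted p = 1). IRF9 at 300 nM differed from 30 nM by -0.38 in GDC-SAR to 0.27 in GDC-0810, and its 6 intervals of 95% together spanned -0.91 to 0.80. Median member differences between the doses were 0.12 in Fulvestrant, -0.27 in SAR439859, 0.09 in GDC-0810, -0.05 in AZD9496, -0.24 in GDC-SAR and -0.28 in AZD-SAR. The medians of all symbols were -0.01, -0.08, -0.02, -0.09, -0.02 and -0.05 in the same order, and with size factors the member median in AZD9496 was 0.04. Intervals of this width do not show that the doses act alike.

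Ligands that share a scaffold or a side chain were compared at matched dose, in 12 pairs. IRF9 was called in 1 of them, GDC-SAR against GDC-0810 at 30 nM, and no other member in any. In that pair 1.28% of all tested symbols were called in either direction. Limma gave an unadjusted p below 0.05 for 8 of 32 members there, where 9.07% of all symbols had one. GDC-SAR lay wholly above GDC-0810 in 13 of 32 members, as it did in 9.59% of all symbols, and the median difference was 0.36 over the members and 0.03 over all symbols. IRF9 averaged 74.7 ± 12.8 TPM with GDC-SAR and 36.3 ± 10.2 with GDC-0810 (SD, n = 3 each), the groups did not overlap, and the difference was 1.04 (SE 0.26, 95% interval 0.51 to 1.57, limma adjusted p = 0.0351). The call was not kept with 1 adjustment over all 12 pairs, without the expression filter, with only the 6 libraries in the fit, or without replicate 1 or 2 of GDC-0810 or any 1 of the GDC-SAR libraries. At 300 nM the same pair differed in IRF9 by 0.39 (-0.14 to 0.92). The exchange of side chain on the AZD9496 scaffold gave 0.25 (-0.28 to 0.78) at 30 nM and 0.22 (-0.31 to 0.74) at 300 nM.

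The test of the difference between the scaffolds in this side chain effect called 0 members at 30 nM and 0 at 300 nM, where 0% and 0.00694% of all symbols were called. Limma gave an unadjusted p below 0.05 for 1 and 3 members there, and for 5.33% and 15.3% of all symbols. For IRF9 that difference was -0.79 (95% interval -1.54 to -0.04, adjusted p = 0.891) at 30 nM and -0.17 (-0.92 to 0.58) at 300 nM.

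In the other 11 pairs 0 members were called. The background was 1.68% of all symbols in AZD-SAR against AZD9496 at 30 nM and 8.57% at 300 nM, and 1.25% in GDC-SAR against GDC-0810 at 300 nM. It was 0.0208% in AZD9496 against GDC-0810 at 30 nM and 1.12% at 300 nM. Against SAR439859 it was 0.257% for GDC-SAR and 0.0555% for AZD-SAR at 30 nM and 0% for both at 300 nM, and it was 0% between AZD-SAR and GDC-SAR at both doses. Over these 11 pairs the first-named ligand lay wholly above the other in 0 to 6 members, beside 3.49 to 25.3% of all symbols. It lay wholly below in 0 to 5, beside 2.99 to 17.9%. The 6 were in AZD-SAR against AZD9496 at 30 nM, beside 4.22%, and the 5 in AZD-SAR against GDC-SAR at 300 nM, beside 3.19%. Unadjusted p fell below 0.05 for 7 members in AZD-SAR against AZD9496 at 300 nM, where it did for 25.7% of all symbols. It did so for 3 in AZD9496 against GDC-0810 at 300 nM, beside 20.8% of all symbols, and for 0 to 2 in each of the others, beside 2.67% to 18.9%. IFI44 at 300 nM averaged 3.35 ± 0.89 TPM with AZD-SAR and 0.536 ± 0.55 with AZD9496 and did not overlap (1.54, 95% interval 0.52 to 2.56, limma adjusted p = 0.0513). In the same pair LGALS3BP averaged 38.7 TPM with AZD-SAR and 60.2 with AZD9496 (-0.65, -1.08 to -0.22, adjusted p = 0.0518). That count of 0 became 4 without replicate 3 of AZD-SAR 300 nM, 2 higher and 2 lower, and 3 with size factors. The 0 of AZD-SAR against SAR439859 at 30 nM became 1, lower, without replicate 2 of SAR439859 30 nM. The share of all symbols called under these changes is not given here.

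ISG15 illustrates how wide the intervals between ligands were. Its difference between GDC-SAR and GDC-0810 was 0.70 (-0.18 to 1.59) at 30 nM and -0.19 (-1.08 to 0.70) at 300 nM. Between AZD-SAR and AZD9496 it was 0.29 (-0.60 to 1.18) and -0.24 (-1.13 to 0.65). None of these passed the test, and the intervals leave room for a difference of either sign.

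Over all 13 groups, an F test called 4 of 32 members (IRF9, DTX3L, MX1 and MX2), where 23.2% of all tested symbols were called. Limma adjusted p was 0.000406 for IRF9, 0.0074 for DTX3L, 0.00953 for MX1 and 0.0485 for MX2. The count was 7 without replicate 1 and 8 without replicate 3 of SAR439859 30 nM, where 28.1% and 26.3% of all symbols were called. Among the 12 treated groups 2 were called, MX1 (0.0204) and IRF9 (0.0282), where 8.73% of all symbols were called, and 0 without the expression filter.

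**Figure D4:**
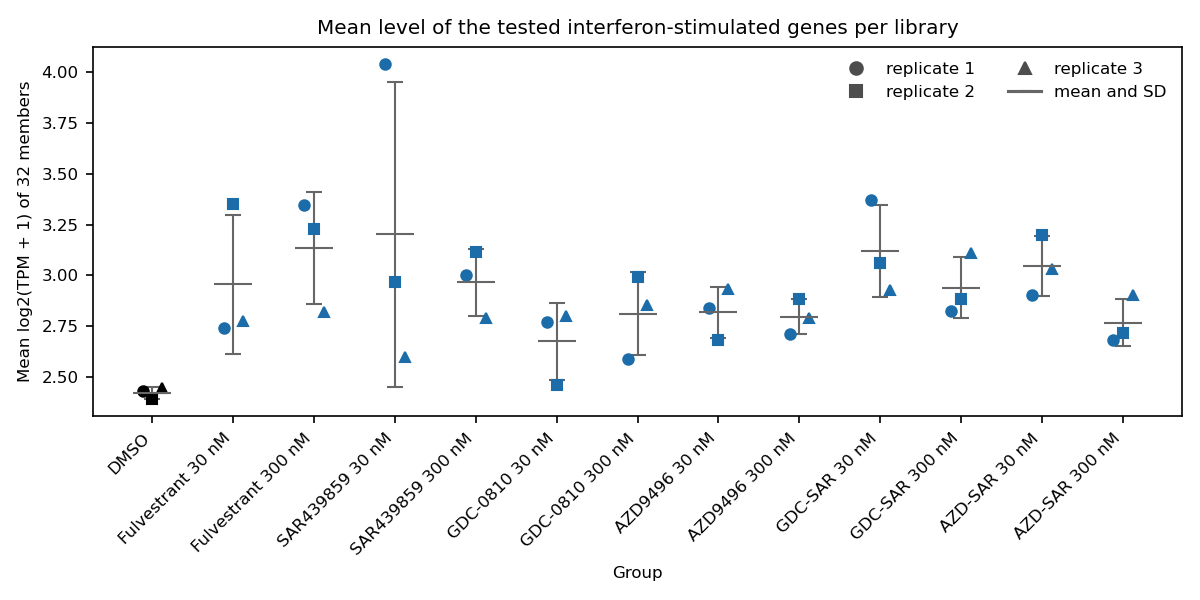
Mean log2(TPM + 1) of the 32 tested members in each library, with replicates 1 to 3 as circle, square and triangle and the mean and SD of each group. The 3 DMSO libraries lie between 2.39 and 2.45, and replicate 1 of SAR439859 30 nM lies at 4.04, above its group-mates at 2.97 and 2.60.

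The mean level of the tested members summed this up per library. DMSO averaged 2.42 ± 0.03 (SD, n = 3, mean log2(TPM + 1)), and its libraries were the 3 lowest of 39, the next being 2.46 in replicate 2 of GDC-0810 30 nM. With size factors that library fell among the DMSO libraries, which then ranked 36, 38 and 39. The treated groups averaged 2.68 ± 0.19 in 30 nM GDC-0810 at the low end and 3.13 ± 0.28 in 300 nM Fulvestrant and 3.20 ± 0.75 in 30 nM SAR439859 at the high end. The SD of 30 nM SAR439859 was larger than the distance between its mean and that of any other treated group. The 5 highest libraries were replicate 1 of SAR439859 30 nM (4.04), of GDC-SAR 30 nM (3.37) and of Fulvestrant 300 nM (3.35) and replicate 2 of Fulvestrant 30 nM (3.35) and of Fulvestrant 300 nM (3.23).

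With all 39 libraries, spread between libraries of a group made up about the same share of the variance in these genes as in all tested symbols. Of a member's variance in log2(TPM + 1), a median of 58.6% lay within groups, against 56.2% for all tested symbols. The member median was lower without replicate 1 of SAR439859 30 nM, and that of all symbols under this omission is not given here. The pooled SD within groups had a median of 0.42, against 0.29 for all symbols. The members also had a lower mean level (2.07 against 3.38), and the part of level in their spread was not tested. By member the pooled SD ran from 0.14 for IFIT5 to 0.78 for IFI27. The share within groups was lowest for IRF9 (26.6%), DTX3L (30.4%), MX1 (37.0%) and MX2 (38.6%) and highest for HERC6 (79.7%) and OASL (76.3%).

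**Figure D5:**
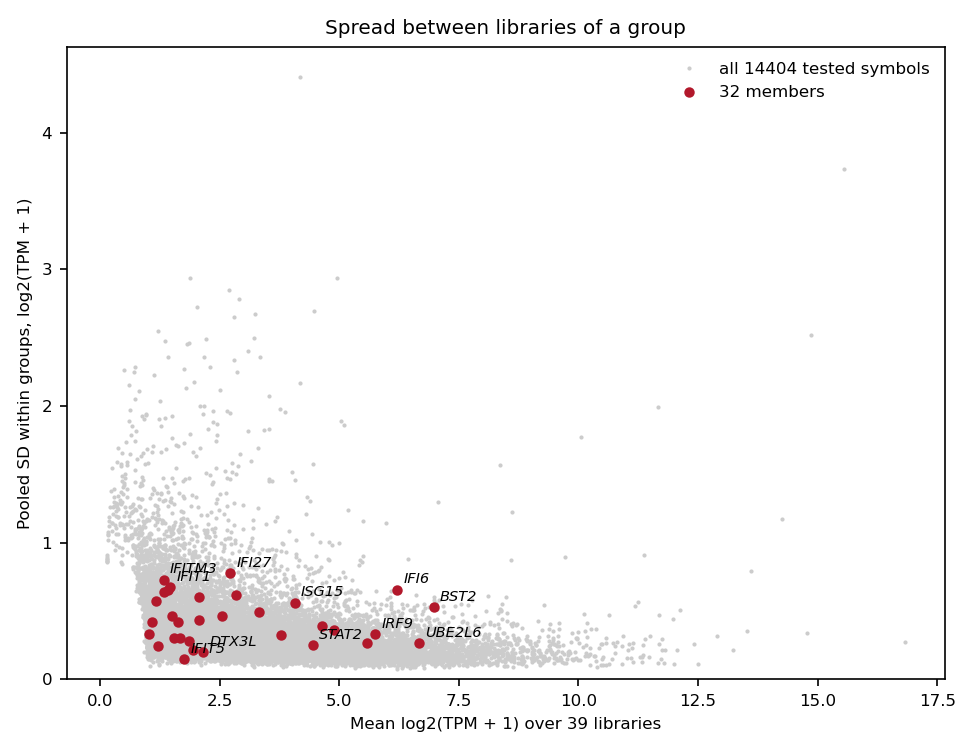
Pooled SD within groups of log2(TPM + 1) against the mean over 39 libraries, for all 14404 tested symbols (grey) and the 32 members (red). IFI6, BST2 and ISG15 lie high for their level, with pooled SDs of 0.66, 0.53 and 0.56, and IFIT5, at 0.14, lies low.

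Deviations from the group mean ran together across these genes. Over the 39 libraries the mean correlation between 2 members' deviations was 0.35, against 0.05 between all tested symbols, and 450 of 496 member pairs were positive. Without replicate 1 of SAR439859 30 nM the means were 0.20 and 0.03. The closest pairs were IFIT1 and IFIT3 (r = 0.87), OAS1 and OAS2 (0.85), ISG15 and OAS2 (0.82) and ISG15 and IFI6 (0.82). OAS2 followed the mean of the other members most closely (r = 0.88, and 0.87 without that library), followed by ISG15 (0.86 and 0.74) and OAS1 (0.84 and 0.75). IFIT5, BST2 and IFITM2 followed it least (0.10 each). BST2 went with STAT2 (0.81) and against UBE2L6 (-0.61). All points share library, depth and base composition, and these correlations are descriptions.

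Replicate 1 of SAR439859 30 nM held the highest of the 39 values for 24 of the 32 tested members, against 15.5% of all tested symbols, and for 18 with size factors. It deviated from its group mean by 0.84 on average over the members, and 31 of 32 lay above the group mean, while the median of all tested symbols deviated by 0.19. It listed 20096 symbols above 0. Replicate 3 of the group held the highest value of no tested member, against 13% of all symbols, and lay below the group mean for all but 2 of them. Over the 39 libraries the members' mean deviation correlated with the median deviation of all tested symbols (r = 0.62, rho = 0.42) and with the number of symbols above 0 (r = 0.22, rho = 0.10). The part of these library properties in the members' levels was not tested. The calls for IRF9, DTX3L, STAT2, ISG15 and MX1 in 30 nM SAR439859 were kept without replicate 1. In the limma fit of only the libraries compared, those for ISG15 (adjusted p = 0.151), MX1 (0.113) and DTX3L (0.107) were lost.

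Genes that make or receive the signal were read from lists outside the members. The 10 listed interferon genes entered no test. IFNA1 and IFNA2 were listed at 0 in all 39 libraries, IFNB1 at 0 in 36, and the highest value of any was 1.41 TPM, for IFNL3. Least often at 0 were IFNL1, in 27 libraries, and IFNL2, in 31, with highest values of 1.04 and 0.740 TPM. Of 6 receptor genes, all tested, IFNGR2, a chain of the interferon gamma receptor, was higher in 6 of 12 comparisons (0.20 to 0.44 over the 12, SE 0.14) from 14.7 ± 0.99 TPM in DMSO, IFNAR1 in 1 (0.21 to 0.56), and IFNAR2 was lower in 2 (-0.64 to -0.08). IFNGR1, IFNLR1 and IL10RB were never called.

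Among 7 brakes on the pathway, SOCS3, which blocks Janus kinases, was lower in 11 comparisons (-2.20 to -0.69, SE 0.24) from 22.9 ± 1.97 TPM, and IRF2, a repressor at ISRE sites, was higher in 9 (0.27 to 0.96, SE 0.17) from 9.64 ± 0.51 TPM. SOCS1, of the same family as SOCS3, was called higher in 5 comparisons (0.35 to 0.93 over all 12), as was the phosphatase PTPN6 (0.58 to 1.02). The phosphatase PTPN2 was called lower in 1 (-0.58 to 0.01 over all 12), and PIAS1 and IRF2BP2 were called in none. Of 12 tested genes of nucleic acid sensing, MAVS, the adaptor of DDX58 and IFIH1, was higher in 7 (0.14 to 0.52, SE 0.12), IRF3 was lower in 6 (-0.69 to 0.03, SE 0.19), and 7 were never called. Of 41 further interferon-stimulated genes 26 were tested. TRIM25 (0.51 to 1.49, SE 0.19) and SP110 (0.66 to 1.68, SE 0.27) were higher in 11 comparisons each, IFI30 in 10 and RNF213 in 7. LAP3 was lower in 6, and 14 of the 26 were never called. Of all tested symbols, 25.5% were called higher in at least 1 of the 12 comparisons, 8.3% in at least 7 and 4.43% in at least 10. The share of all symbols called lower in as many comparisons is not given here. TRIM25 averaged 50.1 ± 7.16 TPM and SP110 24.8 ± 2.28 in DMSO. Within groups the deviations of IRF2 ran against the members' mean (r = -0.51, 39 libraries) and those of SOCS3 were nearly unrelated to it (-0.09).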

How the data were processed

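RNA of 39 libraries from HCC1428-LTED cells, 3 in each of 13 groups, was sequenced. Reads were aligned with STAR to GRCh38, per the submitters' processing notes, and the authors deposited a table of TPM, in which each library adds to 1000000. Which tool counted the reads, with which annotation and strand setting, is not given in the sources used here. Because TPM keeps no depth, no count test was used.

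Values were tested as log2(TPM + 1) in R 4.3.3 with limma 3.58.1, with 1 mean per group over all 39 libraries, 26 residual degrees of freedom and a trend of the variance with the level. The tests took symbols whose mean reached 1 TPM, and p-values were adjusted by Benjamini-Hochberg within each comparison, with a call at an adjusted p below 0.05. Comparisons were 12 with DMSO, 6 between doses, 12 between ligands, 2 differences of side chain effects and 2 F tests. The fit was tested on simulated data.

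The members, lists and named genes were chosen with earlier results of these data known. All 40 members are accounted for. Values in full are for the members with the largest called differences, those with the widest spread within groups, and the main regulators, and other called members are given beside them. Alternatives were a pseudocount of 0.1, no expression filter, median-of-ratios scaling, a fit of only the libraries compared, each replicate left out and 1 adjustment over the 12 ligand pairs. The replicate numbers name libraries in accession order and pair nothing. RefSeq windows matched 32 of 40 symbols. 1 gene of the pathway lists is not reported here.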

Additional observations from a re-analysis of the deposited data

How the results depend on the processing

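None of the 68 called member differences from DMSO changed sign under the alternatives run. With median-of-ratios scaling the member median changed sign in AZD9496 300 against 30 nM (-0.05 to 0.04) and in AZD9496 against GDC-0810 at 30 nM (0.11 to -0.02). No paired analysis was possible because the labels give no replicate numbers that pair libraries. Counts of called members that moved by over 1.5 times are as follows, and the cause was not tested except where fewer libraries entered the fit. With a pseudocount of 0.1 they were 7 in 30 nM Fulvestrant and 5 in 300 nM GDC-0810 against DMSO. With no expression filter they were 2 in 30 nM Fulvestrant, 1 in 300 nM GDC-0810, 3 in 300 nM GDC-SAR, 4 in 30 nM AZD-SAR, 3 in 300 nM AZD-SAR, 0 in GDC-SAR against GDC-0810 at 30 nM and 0 in the F test among treated groups. With median-of-ratios scaling they were 5 in 300 nM GDC-0810, 0 in 30 nM AZD9496 and 3 in AZD-SAR against AZD9496 at 300 nM. With only the libraries compared they were 9 in 30 nM Fulvestrant, 2 in 30 nM SAR439859, 2 in 30 nM GDC-0810, 4 in 30 nM and 3 in 300 nM AZD9496, 11 in 300 nM GDC-SAR, 13 in 30 nM AZD-SAR and 0 in GDC-SAR against GDC-0810 at 30 nM. That last count was also 0 with 1 adjustment over the 12 pairs.

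With 1 library left out, counts ran from 2 to 10 in 30 nM and 5 to 13 in 300 nM Fulvestrant, 5 to 19 in 30 nM and 3 to 8 in 300 nM SAR439859, 0 to 1 in 30 nM and 1 to 7 in 300 nM GDC-0810, and 0 to 4 in 30 nM and 0 to 2 in 300 nM AZD9496. They ran from 4 to 14 in 30 nM and 2 to 6 in 300 nM GDC-SAR, and 1 to 9 in 30 nM and 3 to 8 in 300 nM AZD-SAR. Between ligands they ran from 0 to 1 in GDC-SAR against GDC-0810 and in AZD-SAR against SAR439859 at 30 nM, and from 0 to 4 in AZD-SAR against AZD9496 at 300 nM. The share of all symbols called under each omission is not given here. These ranges include leaving out replicate 1 or 3 of SAR439859 30 nM in comparisons of other groups, which was chosen after seeing the data. Those omissions gave 7 to 8 in the F test among the 13 groups, where 26.3 to 28.1% of all symbols were called. The median share of a member's variance within groups was 49.9% without replicate 1 of SAR439859 30 nM, and that of all symbols is not given here.

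Depth is unknown, so counting error of low members could not be given. The log2(TPM + 1) scale understates differences of members near 1 TPM, such as OAS2, MX2 and the IFITM genes.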
